A study of Mus musculus with 8 samples.

Results

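The heat shock chaperones described here are 10 mouse genes, Hspa1a, Hspa1b, Hspa8, Hsp90aa1, Hsp90ab1, Hspa5, Hspd1, Hspe1, Hsph1 and Dnajb1, measured in sorted CD8 memory T cells of aged mice, with a clonal expansion set beside the polyclonal cells of the same animal. Every probe set whose gene symbol in the array's platform annotation is one of these names was taken. Of the 10 genes, 9 were represented among the 18193 genes that the array names singly, by 23 of its 45101 probe sets, and Hsp90ab1 was not analysed here. A filter on low signal left 21 of the 23, with at least 1 for each of the 9 genes. Where a gene had several probe sets, the one with the highest mean log2 signal over the arrays stands for it and is called its brightest.

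The samples fill 8 Affymetrix Mouse Genome 430 2.0 arrays, and each of 4 female mice gave 1 array of expanded and 1 of polyclonal cells. The cells came from spleen and lymph nodes and were sorted without culture as CD8+ CD122+ MHC II-. Those of an expansion also stained for 1 T cell receptor Vb segment (Vb3, Vb8.1/8.2, Vb8.3 and Vb14 in mice 1 to 4) and the polyclonal cells did not, so an expansion is defined here by its Vb segment and not by a receptor sequence. Expansion 1 belongs to the integrin alpha4-high subclass and expansions 2, 3 and 4 to the alpha4-low subclass. Age was 20 months in mice 1 and 2 and 23 months in mice 3 and 4. The strain was C57BL/10SnJ except in mouse 4, a B10.BR animal. Sort purity was 91 to 98% in the expansions and 66 to 97% in the polyclonal samples. The alpha4-high subclass is thus 1 clone from 1 mouse, and subclass, mouse, Vb segment and sort cannot be told apart for it.

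Heat shock proteins are chaperones that bind unfolded or partly folded proteins and let them fold, refold or be handed on for degradation. The cytosolic HSP70 machine works as a cycle: a J-domain protein such as Dnajb1 delivers the client, the HSP70 protein (constitutive Hspa8, inducible Hspa1a and Hspa1b) holds it, and an exchange factor such as Hsph1 releases it, often on to HSP90 (inducible Hsp90aa1, constitutive Hsp90ab1). Hspa5 (BiP) is the HSP70 of the endoplasmic reticulum, and Hspd1 with its lid Hspe1 forms the folding chamber of mitochondria. In heat or proteotoxic stress the heat shock factor Hsf1 binds repeated, inverted heat shock units in the promoters of many of these genes, whereas Hspa5 answers to unfolded protein in the endoplasmic reticulum through another promoter element; T cells also raise several chaperones when they are activated.

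Promoter sequences of RefSeq (GRCm38.p6; 250 bases before and 50 after an annotated start) were found for 7 of the 10 genes, in 10 windows; Hspa8, Hsp90aa1 and Hsp90ab1 had no entry. Both strands were searched for an inverted pair of heat shock units, written GAANNTTC or TTCNNGAA, for 3 units in a row, GAANNTTCNNGAA or its complement TTCNNGAANNTTC, which contain the pair, and for the endoplasmic reticulum stress element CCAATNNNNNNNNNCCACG. Hspa1a and Hspa1b are shown first because they are near copies of each other and had the widest range of signal among the chaperones. They lie in tandem on chromosome 17 with 10120 bases between them, both on the minus strand, and 247 of the 250 upstream bases are identical and 3 differ. Capitals mark the inverted pair, which begins at position -104 from the start in both genes (chr17:34959239-34959488 for Hspa1b and chr17:34972157-34972406 for Hspa1a, minus strand).
Hspa1b: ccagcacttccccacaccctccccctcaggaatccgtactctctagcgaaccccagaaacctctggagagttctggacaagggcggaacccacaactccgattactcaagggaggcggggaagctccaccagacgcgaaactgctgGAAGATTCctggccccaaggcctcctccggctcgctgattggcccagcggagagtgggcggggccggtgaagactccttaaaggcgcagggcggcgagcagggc
Hspa1a: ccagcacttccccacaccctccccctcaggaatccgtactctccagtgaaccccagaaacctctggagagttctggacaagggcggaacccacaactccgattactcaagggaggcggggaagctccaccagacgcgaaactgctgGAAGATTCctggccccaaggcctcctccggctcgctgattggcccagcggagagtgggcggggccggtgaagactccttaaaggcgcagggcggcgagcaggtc
The next stretches stand for the other kinds of promoter in the set. The Hsph1 stretch (chr5:149636351-149636380, minus strand) holds a pair, the Hspe1 stretch (chr1:55088053-55088082, plus strand) holds units in a row, before the Hspe1 start and inside the annotated Hspd1 gene, which runs the other way and overlaps Hspe1 by 96 bases, and the Hspa5 stretch (chr2:34771970-34772089, plus strand) holds the endoplasmic reticulum element; capitals mark them.
Hsph1: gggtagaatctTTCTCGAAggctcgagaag
Hspe1: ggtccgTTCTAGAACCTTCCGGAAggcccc
Hspa5: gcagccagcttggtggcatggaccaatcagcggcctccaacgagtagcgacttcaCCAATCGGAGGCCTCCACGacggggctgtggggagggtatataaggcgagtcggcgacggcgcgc
The pair was present in 15.1% of all 32851 RefSeq promoter windows of this length, the row of 3 units in 0.603% and the endoplasmic reticulum element in 0.119%. Hspa1a, Hspa1b, Hspd1, Hspe1 and Hsph1 held the pair, and Hspd1, Hspe1 and Hsph1 also held the row of 3. In Hsph1 that row lies past the annotated start. The row of Hspd1 and that of Hspe1 are the same bases, read on opposite strands from overlapping windows. The other Hspd1 window (chr1:55088194-55088493) held none of the 3 motifs. Hspa5 held the endoplasmic reticulum element at position -65 and no pair, and neither window of Dnajb1 held any of the 3 motifs. These are matches of letters, and no binding was measured.

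Values are MAS5 signals, a linear brightness in arbitrary units scaled by the authors so that each array has a 2% trimmed mean of 500. Signals of different probe sets are not set against each other, since each probe set has its own response. Median signals ran from 46.5 to 75.1, and 22085 to 30533 probe sets lay above the array's background level, the 95th percentile of 27 bacterial control probe sets, which ran from 33.7 to 61.9. The ratio of the 3' to the 5' control probe set, a measure of transcript truncation after double amplification, was 34.9 to 89.7 for Actb and 2.78 to 8.41 for Gapdh. In the scanner records 7 arrays share 1 scan day and that of expansion 4 has another, so scan day and that sample cannot be told apart. Cd8a, Cd8b1 and Cd3e, which define CD8 T cells, were above background on all 8 arrays.

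No chaperone gene passed the test in any comparison of expansion with polyclonal cells. Expansion and polyclonal cells of each mouse were compared on log2(signal + 5) with limma, with mouse as a block, first over all 4 pairs, then for the 3 alpha4-low pairs, and last as the difference between the subclasses (alpha4-low minus alpha4-high). The Benjamini-Hochberg adjustment ran over all 22518 tested probe sets, two-sided, with a threshold of 0.05. Over all 4 pairs 0 of the 21 chaperone probe sets passed, against 0% of all tested probe sets, and over the alpha4-low pairs 0 of 21, against 0.0533%. For the difference between subclasses it was again 0 of 21, against 0.0533%. The limma adjusted p-values of the 21 were all 0.9998 or more over all pairs, and ran from 0.985 to 0.9998 for the alpha4-low pairs and from 0.576 to 0.9997 for the difference. At an unadjusted limma p under 0.05 the counts were 0, 0 and 2 of 21, against 3.25%, 5.11% and 6.57% of all tested probe sets; both of the 2 were Hspa1b.

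The chaperones as a set lay close to the middle of all genes in these comparisons. Over the brightest probe sets of the 9 genes the median log2 difference was 0.11 in all pairs (-0.01 over the 10407 genes tested), with 6 genes higher and 3 lower in the expansions. It was 0.17 in the alpha4-low pairs (-0.03 over all genes), again with 6 higher and 3 lower, but quantile normalization turned these medians to -0.07 and -0.05. The single alpha4-high pair had a median of 0.11 (0.08 over all genes) with 7 of 9 higher, and -0.08 with arrays centred on their medians. By pair, the median size of the difference regardless of sign was 0.28, 0.38, 0.60 and 0.30 for the chaperones in mice 1 to 4 and 0.44, 0.59, 0.60 and 0.42 for all genes.

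**Figure D1:**
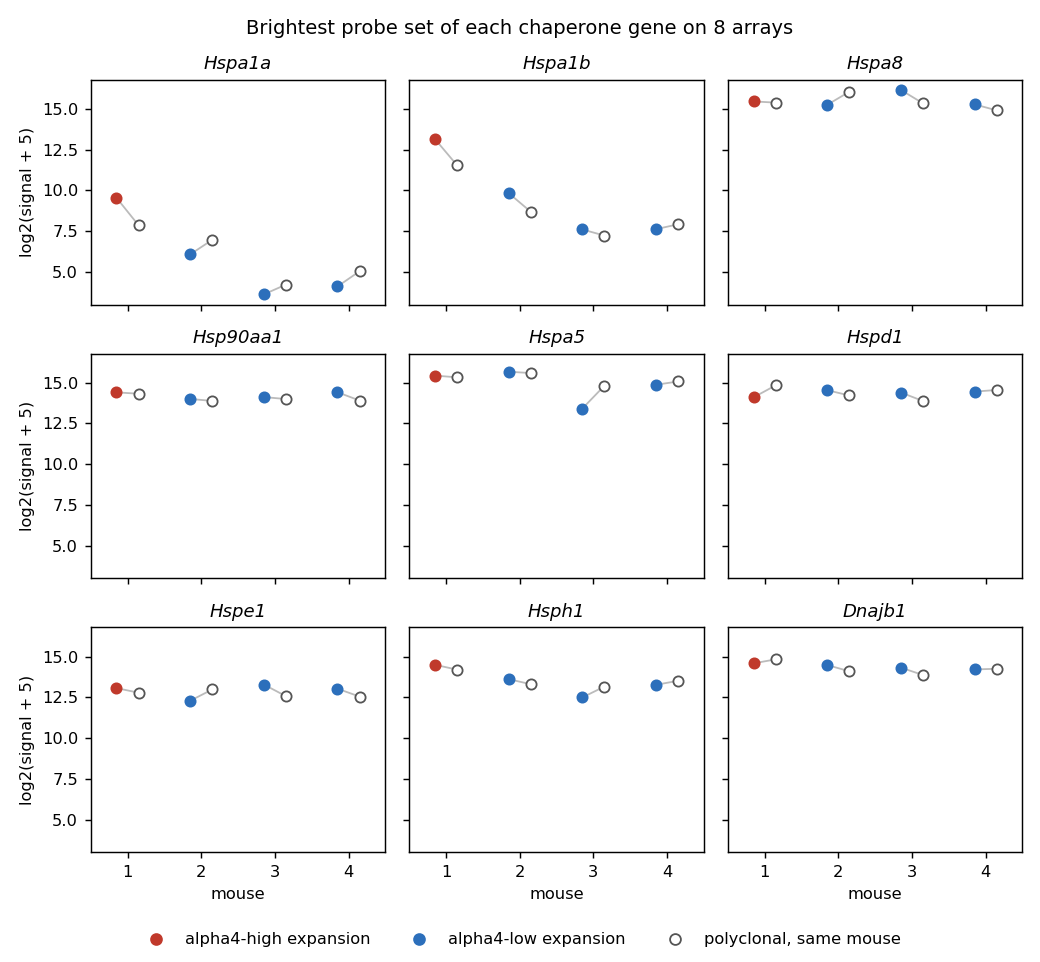
Log2(signal + 5) of the brightest probe set of 9 chaperone genes (vertical axis) for each mouse (horizontal axis), filled for the clonal expansion (red alpha4-high, blue alpha4-low) and open for polyclonal cells of the same mouse, with a line joining the pair. Hspa1a and Hspa1b spread most between mice, with Hspa1a below background on all 4 arrays of mice 3 and 4. The highest array is 4.79 times the lowest for Hspa5, 4.00 times for Hsph1 and at most 2.38 times for the other 5 genes.

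The inducible HSP70 genes gave the widest range of all the chaperones. The brightest Hspa1b probe set (1452318_a_at) measured 9034 in the alpha4-high expansion and 2963 in the polyclonal cells of mouse 1. It measured 909 and 408 in mouse 2, 190 and 145 in mouse 3, and 193 and 238 in mouse 4. Both arrays of mouse 1 were above the other 6, those of mouse 2 came next, and the expansion was above its polyclonal partner in 3 of the 4 mice. The group means were 2581 ± 4315 (SD, n = 4) in the expansions and 939 ± 1354 (SD, n = 4) in the polyclonal cells. Within mice 1 to 4 the log2 differences were 1.61, 1.15, 0.37 and -0.30, with an SD of 0.84. The log2 difference over all pairs was 0.71 (SE 0.38, 95% interval -0.14 to 1.56, limma adjusted p = 0.9998), and over the alpha4-low pairs 0.41 (SE 0.44, -0.54 to 1.35, limma adjusted p = 0.989). The alpha4-low value turned to -0.10 with sort purity as a covariate and to -0.49 without mouse as a block. A lower signal in these sorted samples can come from fewer cells that express a gene or from less RNA per cell, and the arrays cannot tell these apart.

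Hspa1b has another pair of probe sets, which followed the same order of mice but differed in mouse 3. Probe set 1427127_x_at measured 10160 and 2961 (expansion and polyclonal) in mouse 1, 548 and 334 in mouse 2, 15.3 and 85.4 in mouse 3, and 138 and 171 in mouse 4. Probe set 1427126_at measured 4720 and 1095 in mouse 1, 334 and 189 in mouse 2, 24.0 and 54.5 in mouse 3, and 69.0 and 156 in mouse 4. On both, expansion 3 lay below its array's background level of 61.9, so its difference from the polyclonal cells is not a measured fold, whereas the brightest probe set was above background on all 8 arrays. Hspa1a (1452388_at) measured 744 and 227 in mouse 1 and 62.6 and 121 in mouse 2. In mouse 3 it measured 7.38 and 13.7, and in mouse 4 it measured 12.3 and 28.1, all 4 below background, so no order between them can be read. Hspa1a and Hspa1b encode nearly the same protein from nearly identical genes, and which of them a probe set reads is uncertain. The suffix _x_at marks probe sets that may share probes with other transcripts.

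In the alpha4-high pair all 4 Hspa1 probe sets were brighter in the expansion, by 3.05, 3.43 and 4.31 times for Hspa1b and 3.27 times for Hspa1a, in 1 pair with no replicate. In the alpha4-low pairs the log2 differences of Hspa1b's brightest probe set were 1.15, 0.37 and -0.30 in mice 2, 3 and 4. The difference between subclasses was -2.56 (SE 0.95, limma adjusted p = 0.576) for 1427126_at and -2.36 (SE 1.04, limma adjusted p = 0.716) for 1427127_x_at. It was -1.20 (SE 0.87, limma adjusted p = 0.987) for the brightest Hspa1b probe set and -2.50 (SE 1.19, limma adjusted p = 0.783) for Hspa1a. All 4 estimates were negative under the deposited scaling, and 0 of them passed the adjusted threshold; only that of the brightest Hspa1b probe set rests on signals above background throughout. This comparison rests on 1 alpha4-high pair, whose own spread was taken from the alpha4-low pairs. Hspa1a alone among the 21 probe sets was higher in the alpha4-high pair and lower in every alpha4-low pair, a pattern of 8.96% of all tested probe sets, and of its 3 alpha4-low differences only that of mouse 2 rests on signals above background.

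**Figure D2:**
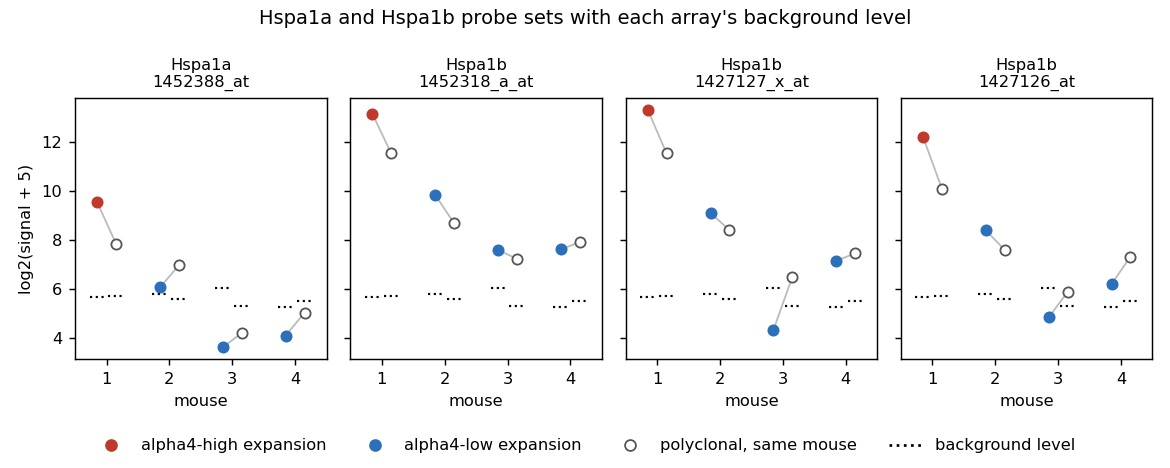
Log2(signal + 5) of the Hspa1a and the 3 Hspa1b probe sets (1 panel each) by mouse, filled for expansions and open for polyclonal cells, with dotted lines at each array's background level. Mouse 1 is highest in every panel and expansion 3 lies under its background line in all but the panel of 1452318_a_at.

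The constitutive HSP70 gene and the partners of the cycle varied less. Hspa8, the everyday cytosolic HSP70, measured 44907 and 42691 (expansion and polyclonal, 1455789_x_at) in mouse 1, 38938 and 67725 in mouse 2, 73107 and 41412 in mouse 3, and 39564 and 30762 in mouse 4. The groups overlapped fully, with 1 expansion (mouse 3) and 1 polyclonal sample (mouse 2) above the rest. The means were 49129 ± 16208 and 45648 ± 15660 (SD, n = 4). The log2 difference was 0.11 over all pairs (SE 0.27, 95% interval -0.48 to 0.71) and -0.05 under quantile normalization. The 3 dimmer Hspa8 probe sets shared the lower value in expansion 2 than in its polyclonal partner, by log2 differences of -1.27, -0.63 and -0.57, beside -0.80 for the brightest.

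Dnajb1, the J-domain protein that hands clients to HSP70, measured 24562 and 29100 in mouse 1, 22856 and 17538 in mouse 2, 20468 and 14965 in mouse 3, and 18983 and 19482 in mouse 4 (1416755_at). Both arrays of mouse 1 were again above the other 6. The expansion was higher in mice 2 and 3 and lower in mice 1 and 4. The alpha4-low log2 difference was 0.27 (SE 0.31, 95% interval -0.41 to 0.94) and -0.01 under quantile normalization. The dimmer Dnajb1 probe set (1416756_at) gave 0.54 in mouse 3, close to the 0.45 of the first, but -1.45 in mouse 2, where the first gave 0.38. In mice 1 and 4 it gave 0.60 and 0.02, where the first gave -0.24 and -0.04.

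Hsph1, the HSP110 exchange factor, measured 23100 and 18787 in mouse 1, 12547 and 10112 in mouse 2, 5771 and 9157 in mouse 3, and 9864 and 11708 in mouse 4 (1425993_a_at). Mouse 1 was again highest on both arrays, and expansion 3 was the lowest array. The log2 difference was -0.08 over all pairs (SE 0.27, 95% interval -0.68 to 0.52), and 0.12 without mouse 3. Its second probe set (1423566_a_at) was lower in the expansion in every pair, with differences of -0.27, -0.18, -1.41 and -0.09. It was the only one of the 21 with that pattern, which 6.05% of all tested probe sets show, and the sign in mouse 2 turned to 0.21 with arrays centred on their medians and to 0.27 under quantile normalization.

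Hsp90aa1, the inducible cytosolic HSP90, had the brightest probe set with the least range of the 9 genes, the highest array being 1.45 times the lowest. It measured 21737 and 20514 in mouse 1, 16439 and 15105 in mouse 2, 17800 and 16358 in mouse 3, and 21865 and 15353 in mouse 4 (1438902_a_at). The expansion was higher in all 4 pairs, by log2 differences of 0.08, 0.12, 0.12 and 0.51, which 4.79% of all tested probe sets also show, but with arrays centred on their medians mouse 1 turned to -0.11, and under quantile normalization mice 2 and 3 turned to -0.02 and -0.25. The mean difference was 0.21 (SE 0.23, 95% interval -0.31 to 0.72, limma adjusted p = 0.9998). Probe set 1426645_at of the same gene behaved differently, with 9890 and 7783 in mouse 1, 5542 and 4275 in mouse 2, 1667 and 3902 in mouse 3, and 3341 and 4172 in mouse 4. Averaged by mouse, its order was that of the brightest Hspa1b and Hsph1 probe sets, from mouse 1 through 2 and 4 to 3, and expansion 3 was its lowest array, as for Hsph1. Probe set 1437497_a_at, also tested, gave log2 differences of 0.72, -1.13, -0.57 and 0.41 in mice 1 to 4, and its highest array was 4.17 times its lowest. A pair of further Hsp90aa1 probe sets did not pass the signal filter and lay under background on 4 and 5 of the 8 arrays.

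Hspa5, the endoplasmic reticulum HSP70, measured 44305 and 41178 in mouse 1, 52251 and 49347 in mouse 2, 10915 and 28929 in mouse 3, and 30046 and 34489 in mouse 4 (1416064_a_at). Expansion 3 stood below all the other arrays, and all 4 arrays of the 20-month mice were above the 4 of the 23-month mice. The alpha4-low log2 difference was -0.51 (SE 0.34, 95% interval -1.24 to 0.23, limma adjusted p = 0.985), the pairs giving 0.08, -1.41 and -0.20, and it turned to 0.07 with sort purity as a covariate. The second probe set (1427464_s_at) gave -1.73 in mouse 3 and differences from 0.09 to 0.26 in the other mice. The third (1447824_x_at) did not follow them: it gave 0.06 in mouse 3 and 1.60 in mouse 4, where expansion 4 measured 2568 and the polyclonal cells 842.

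The mitochondrial pair was among the least variable between mice. Hspd1, the chamber subunit, measured 17581 and 29279 in mouse 1, 23836 and 19044 in mouse 2, 21598 and 15044 in mouse 3, and 22418 and 24064 in mouse 4 (1426351_at). The 4 expansions, at 21358 ± 2682 (SD, n = 4), lay inside the range of the polyclonal cells, at 21858 ± 6172 (SD, n = 4). Its difference between subclasses was the highest of the 9 genes, 0.98 (SE 0.63, 95% interval -0.37 to 2.34, limma adjusted p = 0.954), from -0.74 in the alpha4-high pair against 0.32, 0.52 and -0.10 in the alpha4-low pairs. Hspe1, the lid, measured 8576 and 7052, 5004 and 8095, 9979 and 6087, and 8367 and 5975 in mice 1 to 4 (1450668_s_at). Its expansion was above the polyclonal cells in mice 1, 3 and 4 and below in mouse 2, with a mean log2 difference of 0.20 (SE 0.30, 95% interval -0.48 to 0.87). The second Hspe1 probe set had the same signs in all 4 pairs, 0.47, -0.48, 0.07 and 0.42.

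**Figure D3:**
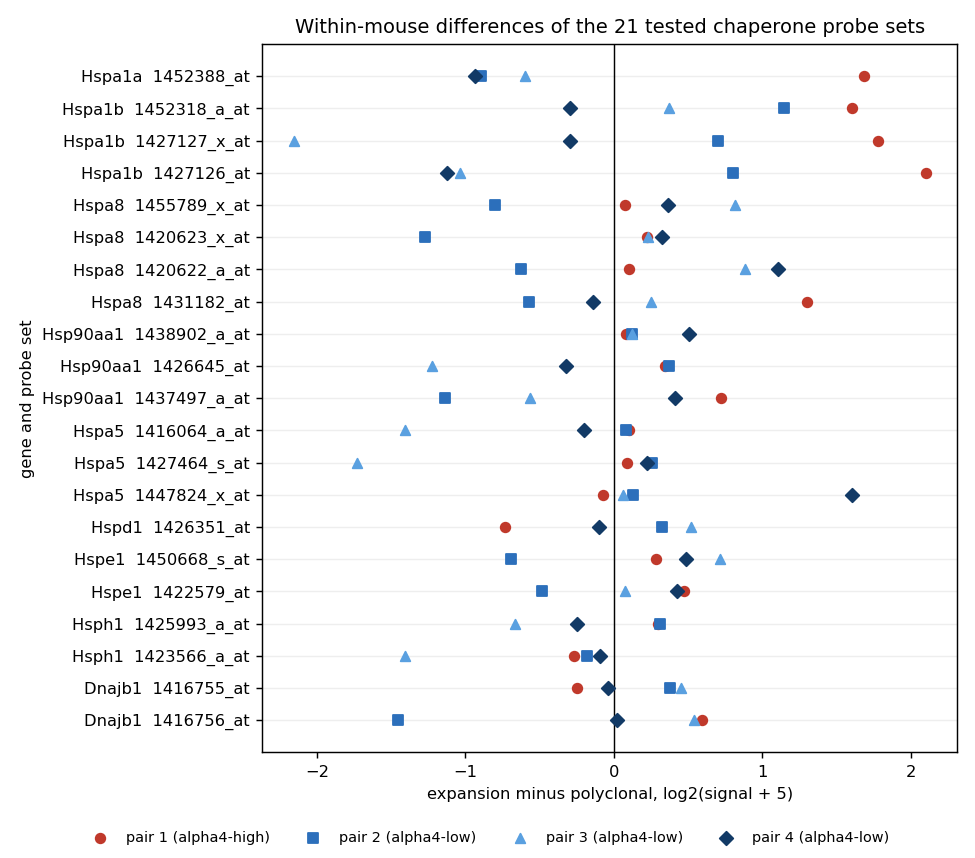
Log2 difference, expansion minus polyclonal, on log2(signal + 5), for the 21 tested chaperone probe sets (rows), with 1 symbol for each pair. Most points lie within 1 log2 unit of 0; the alpha4-high pair lies furthest right for all 4 Hspa1a and Hspa1b probe sets, and pair 3 is at or beyond -1.41 for 4 probe sets of Hspa1b, Hspa5 and Hsph1.

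The inducible HSP70 signals differed widely between mice. Mouse 1 was also the only alpha4-high animal, so its mouse and subclass cannot be told apart. The patterns below were picked after the values were seen and are given as a description. Averaged over both arrays of a mouse on the log2 scale, the brightest Hspa1b probe set, above background on all 8 arrays, stood at 5175, 609, 166 and 214 in mice 1 to 4. The SD of these 4 means was 2.24 log2 units, and 2.39 and 2.27 with median centring and quantile normalization. Among all 22518 tested probe sets the median of this SD was 0.48 and the 99th percentile 1.69. The SD of the 4 within-mouse differences of that Hspa1b probe set was 0.84, against a median of 0.74 over all tested probe sets. The other Hspa1b probe sets and Hspa1a include arrays below background, so their spread has no measured size. For the brightest probe sets of the other genes the SD of the mouse means was 0.14 for Hspe1, 0.17 for Hspd1 and 0.18 for Hsp90aa1. It was 0.26 for Dnajb1, 0.29 for Hspa8, 0.63 for Hsph1 and 0.66 for Hspa5.

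**Figure D4:**
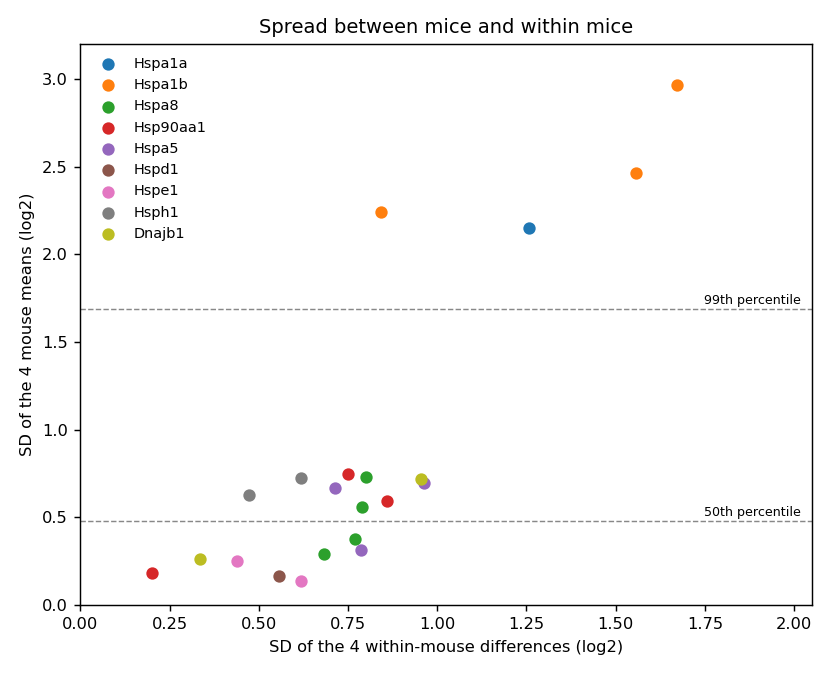
SD of the 4 mouse means (vertical axis, log2 units) against SD of the 4 within-mouse differences (horizontal axis, log2 units) for the 21 tested chaperone probe sets, coloured by gene; dashed lines are the 50th and 99th percentiles of the vertical measure over 22518 tested probe sets. The brightest Hspa1b probe set lies at 2.24, above the 99th percentile of 1.69. The other Hspa1b probe sets and Hspa1a also lie above it but rest partly on signals below background, and the other 17 lie below 0.75.

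Both arrays of mouse 1 were above the other 6 for 9 of the 21 chaperone probe sets, against 4.54% of all tested probe sets. By gene these were Hspa1a, Hspa1b, Hsph1 and Dnajb1, 4 of 9 brightest probe sets, against 5.28% of genes. The dimmer Dnajb1 probe set did not show it, at 424 and 279 in mouse 1 and 710 in polyclonal 2. Hspa1a and Hspa1b may not be separate entries in these counts, since which of them a probe set reads is uncertain. With arrays centred on their medians the count was 11 of 21 and with quantile normalization 9 of 21. All 4 arrays of the 20-month mice were above those of the 23-month mice for 7 of 21 (1.4% of all tested probe sets), 5 with median centring and 6 with quantile normalization; by gene these were Hspa1a and Hspa1b under all 3 scalings and Hspa5 under the deposited one, 3 of 9 against 1.59% of genes. Age here separates mice 1 and 2 from mice 3 and 4, so age and the individual animals cannot be told apart. Mouse 4 is also the only B10.BR animal, so strain and that mouse cannot be told apart either. Expansion 3 was the lowest array for 8 of 21, against 15.4% of all tested probe sets, and for 3 of 9 genes (Hspa1a, Hspa5 and Hsph1), against 18.6%, although 3 of the 8, those of Hspa1a and the dimmer Hspa1b probe sets, were below background there. Its array had the highest median signal (75.1), the highest background level (61.9) and the lowest Gapdh 3' to 5' ratio (2.78) of the 8.

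Markers of other cells, handling and RNA quality were set beside the mouse 1 values. The 3 erythroid genes had a summed signal of 1403 and 1145 (expansion and polyclonal) in mouse 1, 87.7 and 135 in mouse 2, 79.0 and 180 in mouse 3, and 631 and 183 in mouse 4, so both arrays of mouse 1 were the highest here too. In mouse 1 nearly all of it was Slc4a1, the anion exchanger of red cells, at 1325 and 1077, with 26.4 to 584 on the other 6 arrays. Alas2, also of this list, measured 75.4 and 65.3 in mouse 1, the only arrays on which it was above background. The haemoglobin gene Hba-a1 was below background in mouse 1, at 2.51 and 2.82. The B cell gene Ms4a1, at 853.9 and 853.5 against 273 to 805, was also above the other 6 arrays on both arrays of mouse 1. So was Eomes, a T-box factor of NK and memory T cells, at 21207 and 17451 against 8505 to 15581. Of the tested genes only 1 of 6 in the B cell list and 1 of 3 in the NK cell list did so. The summed B cell signal was highest in expansion 2 (35833) and the summed NK cell signal in polyclonal 4 (46944). Ighm alone gave 34327 of that B cell sum. Blnk was also highest in expansion 2 (182), but Cd79a was highest in polyclonal 2 (148) and Cd79b in expansion 1 (252). The immediate early genes, which respond within minutes to handling and activation, had a summed signal over 12 genes of 19067 and 16905 in mouse 1, 52878 and 58997 in mouse 2, 7322 and 10741 in mouse 3, and 21108 and 18444 in mouse 4. These sums were highest in mouse 2 and lowest in mouse 3, and the brightest genes weigh most in them. Fos, an immediate early transcription factor, measured 5688 and 7983 in mouse 1 against 21875 and 23914 in mouse 2. Ier3 of the same list was instead highest in expansion 1, at 3084, with 866 in polyclonal 1. Over the tested genes of the list the median log2 difference in the pair of mouse 1 was 0.26. The Actb 3' to 5' ratio was 38.2 and 54.5 in mouse 1, inside the range of the other mice (34.9 to 89.7), though 38.2 was the lowest of the 4 expansions. Sort purity in mouse 1 was 91% in the expansion, also the lowest of the 4 expansions, and 97% in the polyclonal cells. The part of other cells and of handling in the Hspa1 values was not tested.

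By a rule set on the correlation of log2 signal over the 8 arrays, which come in pairs from 4 mice, the 5 genes most like Hspa1b among 18416 probe sets of other genes were Adipor1 (Pearson r 0.98), Apool (0.97), Psph (0.97), Tmem209 (0.96) and Ppp2r2d (0.96). Adipor1, an adiponectin receptor, measured 2092 and 1453 in mouse 1 and 897 to 1241 on the other 6 arrays. The 4 Hspa1 probe sets correlated with each other at 0.94 to 0.99, and Hsph1's brightest probe set with Hspa1b's 1427127_x_at at 0.98. With 2 arrays of 1 mouse far above the rest, these values restate which mouse was highest. Those most like Hspa5 were Gpd2 (0.98), Bccip, Ikbkg, Mfn1 and Cdc5l (0.97 each). Gpd2, a mitochondrial glycerol phosphate dehydrogenase, measured 92.5 to 137 on 7 arrays and was below background in expansion 3, where Hspa5 was lowest, so its r rests partly on a signal with no measured level. Bccip measured 3349 in expansion 3 and 4426 to 6015 on the other 7. Hspd1's nearest was Hsf2 (0.98), a heat shock transcription factor, followed by Cdadc1 (0.96), Ndufaf6 (0.94), Srfbp1 (0.94) and D16Ertd472e (0.92). Hsf2 measured 104 in polyclonal 1 and 21.7 in polyclonal 3, which were also the highest and lowest arrays for Hspd1. It was above background on 6 of the 8 arrays. The 21.7 in polyclonal 3 and the 32.2 in expansion 1 were below background, so its r also rests partly on signals with no measured level.

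The partners of these chaperones were followed in 7 lists, read from the brightest tested probe set of each gene, and 0 genes passed the adjusted threshold in any of the 7 lists in any comparison, against 0%, 0.0673% and 0.0865% of all genes in all pairs, the alpha4-low pairs and the difference. The heat shock factors and regulators had 6 tested genes, 3 higher and 3 lower in the alpha4-low pairs, with a median of -0.17. Hsf1 had no probe set that names it alone and was not among them. Hsf2, itself a heat shock factor, gave 0.58 (SE 0.63) with signals above background on 6 of 8 arrays, and Hsbp1, which binds and dampens heat shock factor, gave -0.40 (SE 0.44). Of the 6 HSP70 and HSP110 relatives 3 were higher and 3 lower, with a median of 0.08. Hspa4, a cytosolic HSP110, gave -0.11 (SE 0.36), Hspa9, the mitochondrial HSP70, gave 0.31 (SE 0.34), and Hspa13, an HSP70 of microsomes, gave 0.28 (SE 0.46).

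The HSP90 relatives and cochaperones had the lowest median of the 7 lists in the alpha4-low pairs, -0.29 over 10 tested genes, 4 higher and 6 lower, and it was -0.23 and -0.19 with median centring and quantile normalization. Ahsa1, which stimulates the HSP90 ATPase, gave -0.62 (SE 0.46), Cdc37, which brings kinases to HSP90, gave -0.67 (SE 0.62), and Stip1, which links HSP70 to HSP90, gave 0.14 (SE 0.54). The 17 J-domain, BAG and nucleotide exchange cochaperones had a median of -0.04, which turned to 0.03 with median centring, with 8 higher and 9 lower. Dnaja1, a J-domain partner of Hspa8, gave 0.13 (SE 0.32), Dnajb6, another J-domain protein, gave -0.37 (SE 0.44), and Bag1, an exchange factor, gave -0.81 (SE 0.43). The 8 subunits of TRiC, the cytosolic chaperonin, had a median of 0.17, which turned to -0.10 under quantile normalization; Tcp1 gave 0.22 (SE 0.29), Cct2 gave 0.13 (SE 0.29) and Cct5 gave -0.19 (SE 0.34).

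For the endoplasmic reticulum, 21 folding and unfolded protein response genes had a median of 0.06 in the alpha4-low pairs, 12 higher and 9 lower. Hsp90b1, the HSP90 of this compartment, gave 0.11 (SE 0.46), Calr, a lectin chaperone, -0.02 (SE 0.46), and Pdia6, a disulphide isomerase, -0.93 (SE 0.48). The 12 mitochondrial folding and protease genes had a median of 0.21, 8 higher and 4 lower, with 0.39 (SE 0.46) for the protease Lonp1 and 0.33 (SE 0.49) for Clpp.

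**Figure D5:**
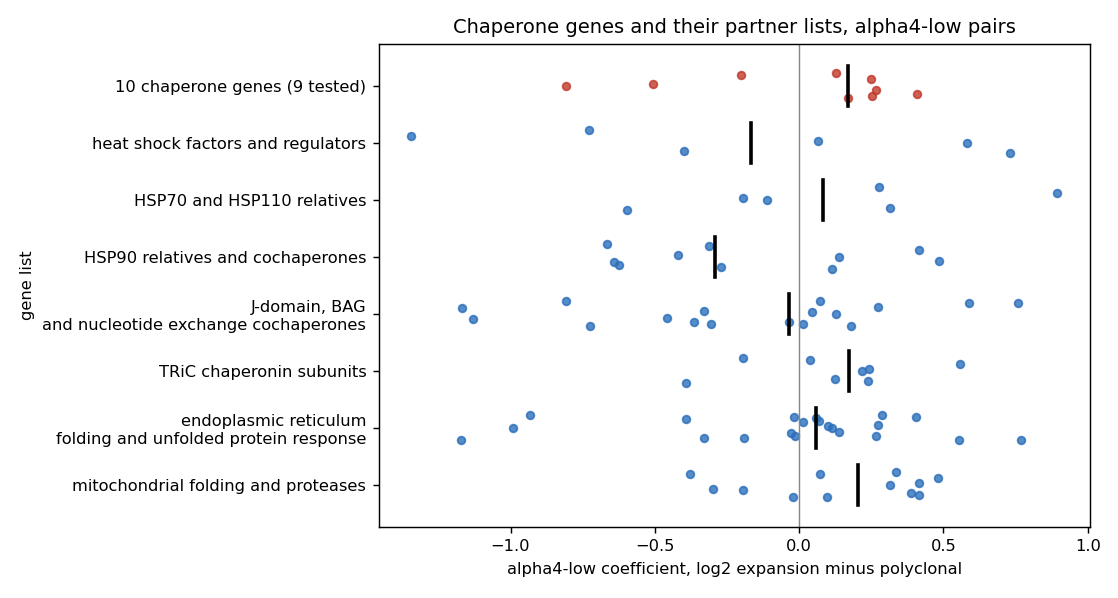
Log2 difference of the alpha4-low expansions from polyclonal cells (horizontal axis) for the brightest tested probe set of each gene, by list (rows), with a black bar at each list's median; red points are the 9 chaperone genes. The medians lie between -0.29 and 0.21 under the deposited scaling, those of the J-domain and TRiC lists change sign with another scaling, and the 9 chaperones run from -0.81 (Hspa1a) to 0.41 (Hspa1b).

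For the difference between subclasses the chaperones' median was -0.11, against -0.09 over all genes, with 4 higher and 5 lower, and the values ran from -2.50 (Hspa1a) to 0.98 (Hspd1). The median over all tested probe sets in this comparison was -0.10, moved to 0.15 with median centring and to 0.05 with quantile normalization, and values near these cannot be given a direction. The HSP90 list had a median of -0.66 and the endoplasmic reticulum list -0.47, both negative under the other scalings also (-0.41 and -0.56, and -0.22 and -0.34). Lists of other kinds had medians below both in the same comparison: -0.92 for MHC class II genes, -0.85 for NK cell genes, -0.79 for CD8 T cell genes, -0.78 for immediate early genes and -0.75 for myeloid genes, and all 5 were negative under the other scalings as well. Both arrays of mouse 1 were above the other 6 for 5 of the 17 J-domain, BAG and exchange genes (Dnaja1, Dnajb6, Dnajb11, Bag4 and St13), 2 of 6 HSP70 relatives (Hspa13 and Hspa4l), 1 of 10 HSP90 genes (Sugt1), 1 of 8 TRiC genes (Cct5), 2 of 21 endoplasmic reticulum genes and 2 of 12 mitochondrial genes, against 5.28% of all genes; they are named here after their values were seen. Hspa4l, an HSP110 relative, measured 2395 and 1067 in mouse 1 and 415 to 808 on the other 6 arrays. None of the 10 tested immediate early genes and 0 of the 6 tested heat shock factors and regulators, which do not include Hsf1, did so.

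Marker lists of other cells were summed on each array, and the brightest genes weigh most in such a sum. CD8 T cell genes (7 measured) summed to 22127 to 50730 in the expansions and 27470 to 49175 in the polyclonal cells. B cell genes (7) summed to 2738 to 35833 and 4740 to 15425, myeloid and dendritic cell genes (9) to 2034 to 4002 and 1952 to 2580, and MHC class II genes (4) to 541 to 1730 and 394 to 1358. CD4 T cell genes (4) summed to 277 to 345 and 181 to 419, NK cell genes (4) to 8811 to 26868 and 17475 to 46944, and erythroid genes (3), highest in mouse 1, to 79.0 to 1403 and 135 to 1145. Ncr1, which defines NK cells, was above background on 0 of 8 arrays, but Klre1, Eomes and Klra8 of the same list were above it on all 8. Cd4 was above background on 2 of 8, and Foxp3, Cd40lg and Zbtb7b of its list on 6, 7 and 8. The part of these cells in the chaperone values was not tested.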

How the data were processed

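Gene expression was measured on 8 Affymetrix Mouse Genome 430 2.0 arrays, 2 for each of 4 mice. Per the labels' protocols, RNA was taken from frozen sorted cells side by side, subjected to a double amplification and given a biotin label. The deposited values are 1 linear intensity per probe set; the submitters' processing notes name MAS5 (version not given in the sources used here). Each array has a 2% trimmed mean of 500 in the deposited values, so no scaling was added; such scaling hides a change in total RNA per cell, and double amplification favours 3' ends. The scanner records are other text, deposited by the authors, and were read for the scan day only.

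Signals were taken as log2(value + 5), so differences of dim probe sets are understated. Control probe sets (64) were dropped, as was every probe set at or under the median of mean log2 signal, leaving 22518. Linear models (lmFit and trended eBayes of limma 3.58.1, under R 4.3.3) were fitted on all of these. Mouse was a block because the design text takes both samples of a pair from the same mouse. The fit with 1 expansion term leaves 3 residual degrees of freedom, and the fit with separate subclass terms leaves 2. Correlations of same-mouse deviations from the group means were 0.374, 0.0771, 0.214 and 0.338; expansions 2 and 3 correlated better with polyclonal 4 (0.131) and polyclonal 2 (0.301). The descriptions of expansions 3 and 4 number them otherwise than their titles do; the titles were used, and strain, age and the Vb segment sorted for or against match within each pair so formed. Probe sets were named through the platform annotation, where 34958 have 1 gene symbol, 932 have several and 9211 have none. Promoters are RefSeq's (GRCm38.p6). The fitting code was tested on simulated data with normal noise. A log2 change of 1 was recovered for 8.96% of changed probe sets over all pairs and 0% over the alpha4-low pairs. For a log2 change of 2 it was 77.6% and 52.2%, and less for the difference between subclasses. Changes of the smaller size would thus mostly be missed.

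The named genes are all probe sets of the 10 chaperones, list members past the threshold and the first 3 written in each list, and the 5 genes most like Hspa1b, Hspa5 and Hspd1. The chaperones and all lists were chosen with earlier results of these data known. Alternatives were another pseudocount, filter, scaling, probe set summary or variance model, no block, sort purity as a covariate, and leaving out each mouse.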

Additional observations from a re-analysis of the deposited data

Results flagged for a closer look

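In each of 23 chaperone probe sets the highest or lowest of the 4 polyclonal samples was compared with the rest. A gap to the nearest sample beyond Dixon's 95% critical share of the group's range was taken as standing apart, which chance gives in about 1 in 20 groups. It occurred for 2 of the 23. The polyclonal sample of mouse 2 measured 1470 on the dimmest Hspa8 probe set, 1431182_at, where the other polyclonal samples measured 367 to 442. The polyclonal sample of mouse 1 measured 7783 on Hsp90aa1 probe set 1426645_at, where the others measured 3902 to 4275.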

How the results depend on the processing

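The number of chaperone genes called was 0 in each comparison under every alternative run, and of 348 alternative values for single genes 308 kept their direction, 40 reversed and 0 crossed the adjusted threshold (lowest limma adjusted p 0.159). Averaging a gene's probe sets moved the median of the alpha4-low pairs from 0.17 to -0.11 and that of the alpha4-high pair from 0.11 to 0.38. Reversed log2 values follow, and their cause was not tested. In all pairs, a pseudocount of 32 gave 0.059 for Hspa1a. Quantile normalization gave -0.072 for Dnajb1, -0.053 for Hspa8 and -0.24 for Hspd1 in all pairs, -0.011, -0.10 and -0.053 for the same genes in the alpha4-low pairs, and -0.059 for Hsp90aa1 and -0.19 for Hspa8 in the difference. Median centring gave -0.00041 for Hspd1 in all pairs and 0.14 for Hspe1 in the difference. Sort purity as a covariate gave -0.084 for Dnajb1, 0.34 for Hspa1a, -0.35 for Hspd1 and 0.092 for Hsph1 in all pairs, -0.033 for Dnajb1, -0.10 for Hspa1b, 0.074 for Hspa5 and -0.12 for Hspd1 in the alpha4-low pairs, and 0.17 for Hspa5 and -0.075 for Hspa8 in the difference. Pairs 1 and 4 alone, the purest and chosen after seeing the data, gave -0.14 for Dnajb1, 0.38 for Hspa1a, -0.42 for Hspd1 and 0.025 for Hsph1.

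Without mouse as a replicate block Hspa1b gave -0.49 in the alpha4-low pairs, and in the difference Dnajb1 gave -0.25 and Hsp90aa1 -0.23; the block changed no other sign and no call of a chaperone.

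Leaving out each mouse in turn reversed Hspa1a, Hspa8, Hspd1 and Hsph1 in all pairs, where the values ran from -0.81 to 0.065, -0.12 to 0.42, -0.17 to 0.25 and -0.20 to 0.12. It reversed Hspa8, Hspe1 and Hsph1 in the alpha4-low pairs, each time without mouse 3, with values of -0.22 to 0.59, -0.10 to 0.60 and -0.46 to 0.032, and Hspa8 and Hspe1 in the difference, at -0.29 to 0.52 and -0.39 to 0.32.

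Among all 22518 tested probe sets 0, 12 and 12 were called in all pairs, the alpha4-low pairs and the difference. The alpha4-low count was 0 without the trend or without the block, 6 to 42 with other pseudocounts, filters, scalings or purity, and 18 to 148 with a mouse left out; the difference count was 0 to 143 and 64 to 266 likewise, and the count over all pairs was 20 without mouse 1 and 0 otherwise. With 1 array per sample and 4 mice, differences of the size seen here cannot be separated from the spread of the within-mouse differences.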
